A study of Mus musculus with 34 samples.

Results

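Glycolysis, the pentose phosphate pathway and the TCA cycle were examined through 41 genes, of 23366 in the deposited RNA-seq table, in J1 mouse embryonic stem cells (mESCs) cultured without LIF and with or without Royalactin. The genes were chosen by name, with earlier results of these data known. They were 4 transporters of glucose and lactate, 9 genes of upper and 7 of lower glycolysis, and 2 of lactate dehydrogenase. A further 5 were of pyruvate dehydrogenase and its kinases, 5 of the pentose phosphate pathway, and 9 of the TCA cycle and related dehydrogenases. J1 is an established line that needs LIF, a cytokine, to stay undifferentiated in serum. There were 2 libraries from serum/-LIF and 2 from serum/-LIF + Royalactin, the latter with the purified honey bee protein at 0.5 mg/ml. Cells of both groups came from the same line, were grown in serum medium on gelatin and lacked added LIF. The labels give passage 40 for both groups and no harvest time for the RNA. A figure legend of the study gives a lower passage for its RNA-seq of J1 cells, and this difference is unresolved. The series holds 34 samples, and the other 30, all ATAC-seq, were not analysed here. No serum/+LIF RNA library was analysed, so the values below compare Royalactin with LIF withdrawal and not with LIF.

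Glycolysis splits glucose into pyruvate. Lactate dehydrogenase turns pyruvate into lactate, which leaves the cell through monocarboxylate transporters, whereas pyruvate dehydrogenase, which its kinases switch off, passes pyruvate on to the TCA cycle in mitochondria. The pentose phosphate pathway branches off early and yields NADPH and ribose for nucleotides. Many of these steps have several isozymes encoded by separate genes, and mESCs are known to use both glycolysis and respiration, with the balance shifting between pluripotent states and on differentiation.

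Per library, 14737796 to 17597818 reads were counted on genes, but Rn45s, a ribosomal RNA precursor, accounted for 46.6% and 21.6% of them in the serum/-LIF libraries and 38.4% and 9.08% in the Royalactin libraries (replicates 1 and 2, the order used for every pair of values below). This left 7878527 and 11559820 reads, and 10538334 and 15999458 reads. The 41 genes took 99197 and 122500 of these reads in serum/-LIF, and 107696 and 195839 with Royalactin, which is 1.26% and 1.06%, and 1.02% and 1.22%, so the shares overlapped. Of 10 markers of undifferentiated mESCs, 9 were higher with Royalactin and 4 of them (Sox2, Zfp42, Esrrb and Klf4) passed an adjusted p of 0.05 (limma, Benjamini-Hochberg). Summed normalized counts were 26162 and 31709 in serum/-LIF and 35420 and 42624 with Royalactin for these markers, and 269 and 285, and 162 and 103, for 12 fibroblast markers, of which Pdgfrb, Postn and Prrx1 were at 0 in every library. Only 4 of these 12 were expressed enough to test. Of the 4, Twist1 and Dcn were lower in both Royalactin libraries, and Thy1 and Pdgfra overlapped. Twist1 alone had 104 and 189, and 64.4 and 32.4. The sums were 388 and 346, and 306 and 220, for 8 extraembryonic endoderm markers (Dab2 and Ttr lower, Gata4 and Sox17 higher in both Royalactin libraries). For 8 neural markers they were 1377 and 2023, and 2176 and 2497. Of these 8, Pax6 and Tubb3 were higher and Dcx was lower in both Royalactin libraries, and the others overlapped. Stmn2, the largest part of the neural sums, was among those that overlapped, with 661 and 1232, and 1162 and 1406. The cultures thus differed in marker RNA as well as in treatment, and the part of this in the metabolic genes was not tested. In bulk RNA, fewer cells of a type and less RNA per cell cannot be told apart.

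Most metabolic genes had similar levels with and without Royalactin. Tests covered 40 of the 41, those whose normalized counts averaged at least 10 (Pdk2 did not). In log2 fold change, 20 were higher and 20 lower with Royalactin, around a median of -0.01 and a range from -1.11 to 1.63. Over all 12993 genes tested the median was also -0.01, and 49.4% were higher. None of the 40 passed an adjusted p of 0.05 in limma after Benjamini-Hochberg adjustment over all genes tested, against 0.493% of all genes (64 genes, 43 higher and 21 lower). The lowest adjusted p among the 40 was 0.0841 in limma (Benjamini-Hochberg). At an unadjusted limma p under 0.05 there were 5 (Pfkp, Ldhb, Pdk1 and Idh1 higher, and Slc16a3 lower), which is 12.5% of the 40 beside 9.34% of all genes (4.76% higher and 4.58% lower). Adding a limit of 2-fold, as the study's methods do, left 2, Pfkp and Slc16a3, or 5.0% beside 7.13% of all genes (3.52% higher and 3.61% lower). These counts lay near those that the shares among all genes would give.

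For 23 of the 40 genes the 95% interval of the fold change lay within 2-fold in either direction, and for the others it reached past 2-fold on at least one side. Over the tested members, the 2 serum/-LIF replicates differed by a median of 0.41 on the log2 scale, the Royalactin replicates by 0.30 and the group means by 0.24. Both Royalactin libraries lay above both serum/-LIF libraries for 8 members and below them for 6, so 35.0% did not overlap, beside 38.6% of all genes (19.7% above and 18.9% below). For the members as for all genes, the serum/-LIF pair was the more uneven one.

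**Figure D1:**
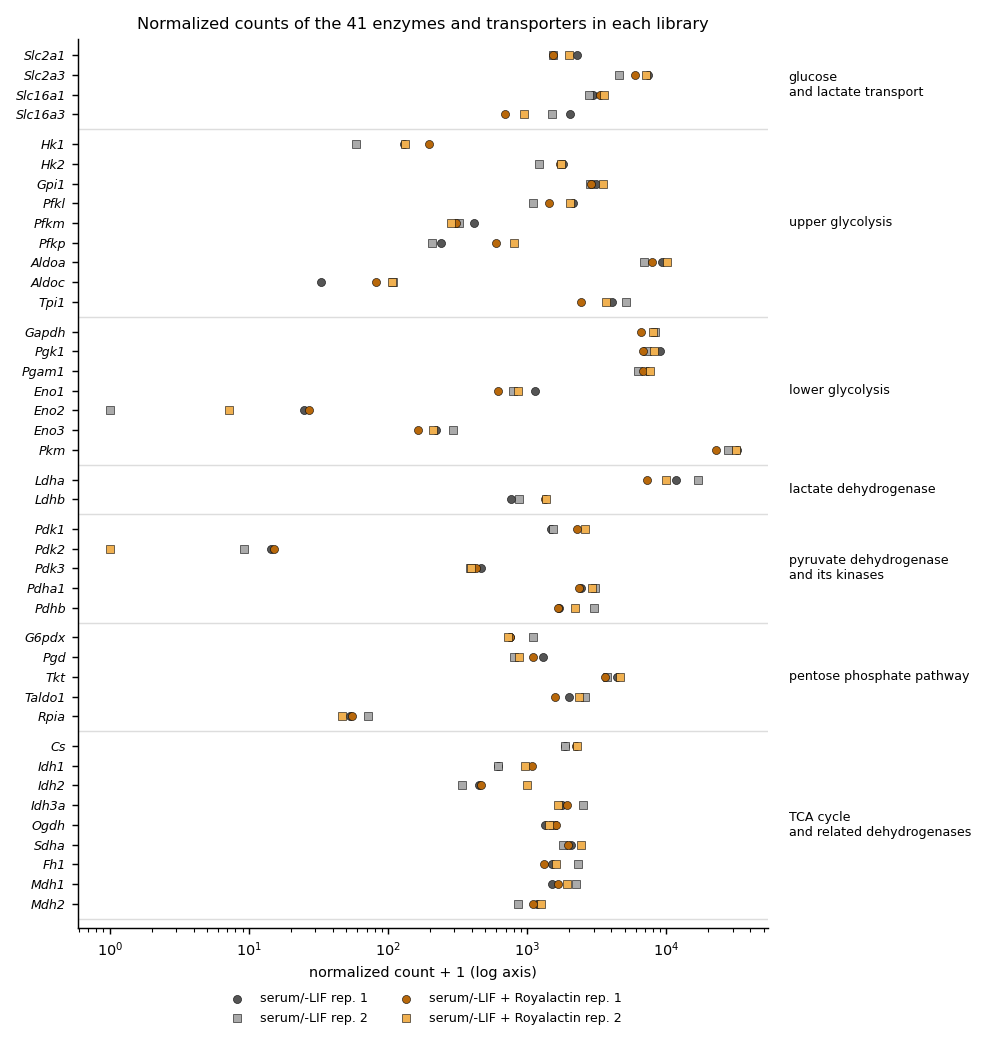
Normalized count + 1 (log axis) of the 41 genes in the 4 libraries, grouped by pathway arm, with 1 point per library, the serum/-LIF libraries in grey and the serum/-LIF + Royalactin libraries in orange. The points of the 2 groups overlap for most genes, and 14 of the 40 tested genes, Pfkp, Slc16a3, Ldhb, Pdk1 and Idh1 among them, have both Royalactin libraries on 1 side.

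**Figure D2:**
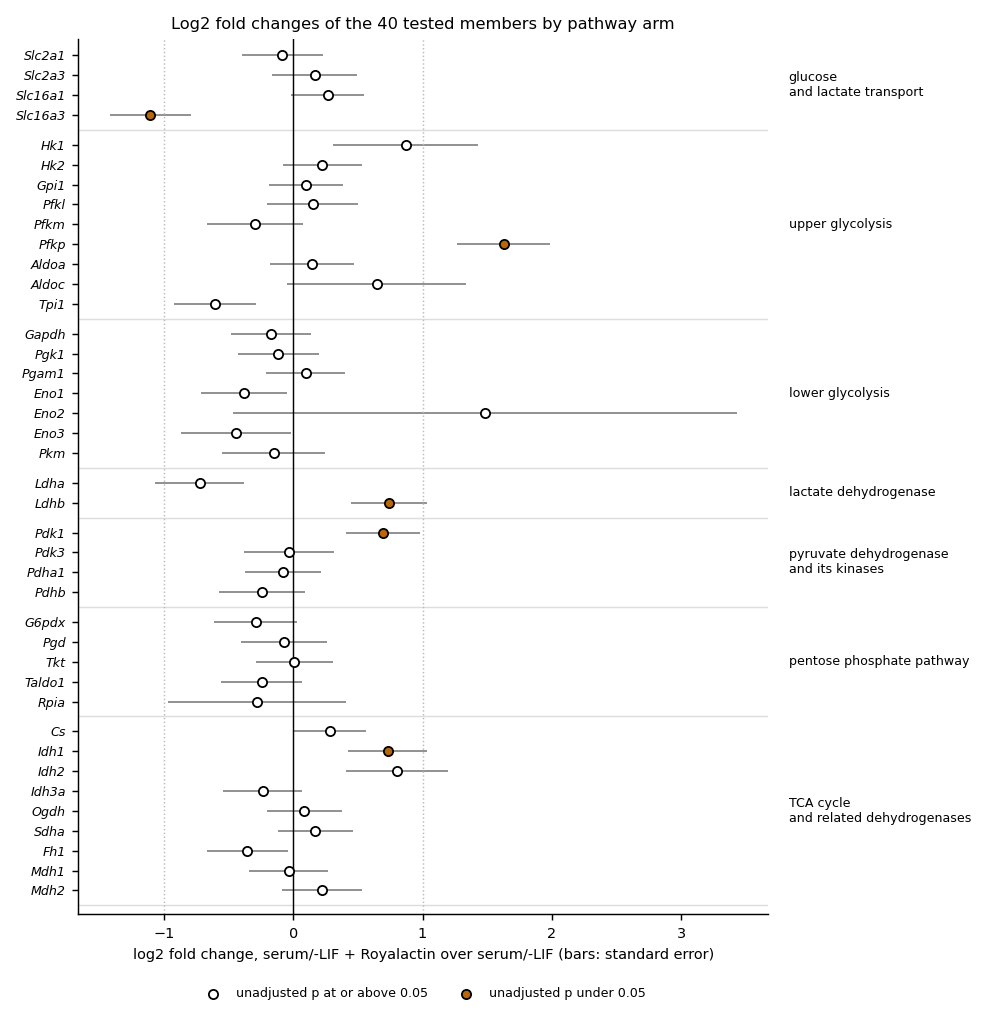
Log2 fold change of serum/-LIF + Royalactin over serum/-LIF for the 40 tested genes by arm, with bars for the standard error from limma and filled points for an unadjusted p under 0.05. The 5 filled points are Slc16a3 below 0 and Pfkp, Ldhb, Pdk1 and Idh1 above it.

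Levels were compared between genes as normalized counts per kilobase of exon. Pkm, the pyruvate kinase of the last glycolytic step, had the highest level in both groups, with means of 12432 ± 1304 in serum/-LIF and 11309 ± 2624 with Royalactin (SD, n = 2). Ldha, Pgam1, Gapdh, Pgk1 and Aldoa took ranks 2 to 6 in both groups, in a different order. In serum/-LIF the level of Ldha was 4763 ± 1215 per kilobase, above Pgam1 at 3676 ± 372, but the 2 genes overlapped between libraries. With Royalactin Ldha was the lowest of these 5 genes, at 2874 ± 645 (SD, n = 2), and its libraries overlapped those of Pgk1, Gapdh and Aldoa. This rank depends on the length used. The merged exons of Ldha span 2982 bases and its longest transcript 1766, against 1831 for both lengths of Pgam1. With the longest transcripts Ldha would not be the lowest of the 5 genes. Below them came Tpi1, at 2079 ± 353 and 1387 ± 402, and Pdhb. Genes of the TCA cycle lay lower, between 152 ± 30.3 for Idh2 and 850 ± 214 for Idh3a in serum/-LIF. Pdk2 and Eno2, a pyruvate dehydrogenase kinase and the neuronal enolase, were lowest in both groups, with means of 3.44 or less per kilobase.

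Pfkp had the highest log2 fold change among the members with the pseudocount of 1 (Eno2, with few reads, had a higher one with a pseudocount of 0.1, and without serum/-LIF replicate 1 or Royalactin replicate 2). It stayed a minor phosphofructokinase. Phosphofructokinase commits sugar to glycolysis, and Pfkp encodes its platelet type, Pfkl the liver type and Pfkm the muscle type. Pfkp (chromosome 13, 6579014 to 6648023 of mm9, minus strand) had 239 and 206 normalized counts in serum/-LIF and 590 and 802 with Royalactin. Both Royalactin libraries lay far above both serum/-LIF libraries. The log2 fold change was 1.63 (SE 0.36), a fold of 3.09 with a 95% interval of 1.80 to 5.30, and the adjusted p was 0.0841 (limma, Benjamini-Hochberg). Over the alternatives its adjusted p ranged from 1.21e-05 to 0.9997, and with any 1 library left out the fold stayed between 2.65 and 3.60 while no gene at all passed adjustment. Genes with a mean of at least 50, tested alone, gave Pfkp an adjusted p of 0.0367, and a correction for GC content and length gave 0.0161 (limma, Benjamini-Hochberg). Pfkp exons share 372 bases with those of Pitrm1 on the opposite strand, and the strand setting of the counting is not stated.

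The other phosphofructokinases did not move with Pfkp. Pfkl had 2141 and 1099 normalized counts in serum/-LIF and 1439 and 2013 with Royalactin, which overlapped (log2 fold change 0.15, SE 0.35). Pfkm had 411 and 320, and 309 and 282, slightly lower in both Royalactin libraries, with a log2 fold change of -0.30 (SE 0.37). In limma the adjusted p-values of Pfkl and Pfkm were 0.932 and 0.857 (Benjamini-Hochberg). Scaled by exon length, Pfkp made up 3.94% and 5.82% of phosphofructokinase RNA in serum/-LIF and 12.8% and 13.4% with Royalactin. Pfkl remained the main form, with 66.4% to 75.3% in all 4 libraries. The ratio of Pfkl to Pfkp per kilobase was 19.1 and 11.4 in serum/-LIF and 5.21 and 5.37 with Royalactin.

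With all 4 libraries, Slc16a3 had the lowest log2 fold change (without serum/-LIF replicate 1, Ldha did). Its product MCT4 is a monocarboxylate transporter known for exporting lactate from glycolytic cells, whereas Slc16a1 encodes MCT1, which carries lactate and pyruvate in either direction. Slc16a3 (chromosome 11, 120809794 to 120822182, plus strand) had 2011 and 1506 normalized counts in serum/-LIF and 694 and 941 with Royalactin. Both Royalactin libraries lay below both serum/-LIF libraries. The log2 fold change was -1.11 (SE 0.31), a fold of 0.465 with a 95% interval of 0.291 to 0.742 (limma adjusted p = 0.199, Benjamini-Hochberg). Over the alternatives the adjusted p ranged from 2.60e-06 to 0.9997, and it was 0.0133 after the correction for GC content and length (limma, Benjamini-Hochberg). With 1 library left out the fold was 0.399 to 0.541, and without Royalactin replicate 1 the unadjusted limma p rose to 0.0783. Slc16a3 exons share 831 bases with those of Csnk1d on the opposite strand.

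Slc16a1 had 2957 and 2796 normalized counts in serum/-LIF and 3358 and 3561 with Royalactin, a small difference without overlap (log2 fold change 0.27, SE 0.28; limma adjusted p = 0.829, Benjamini-Hochberg). Per kilobase, Slc16a3 therefore made up 36.1% and 31.0% of the pair in serum/-LIF and 14.7% and 18.0% with Royalactin. Among the glucose transporters, Slc2a1 (GLUT1) had 2261 and 1533, and 1536 and 2003 normalized counts, and Slc2a3 (GLUT3) had 7350 and 4570, and 5918 and 7132. Both overlapped between the groups, with log2 fold changes of -0.09 (SE 0.31) and 0.16 (SE 0.33) and limma adjusted p-values of 0.957 and 0.917 (Benjamini-Hochberg). The share of Slc2a1 in this pair was slightly lower with Royalactin, at 39.7% and 41.6% after 43.9% and 46.0%. For Slc2a1 and Slc2a3 no difference in level was detectable at this spread, and the transport arm had a median log2 fold change of 0.04 over its 4 genes.

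**Figure D3:**
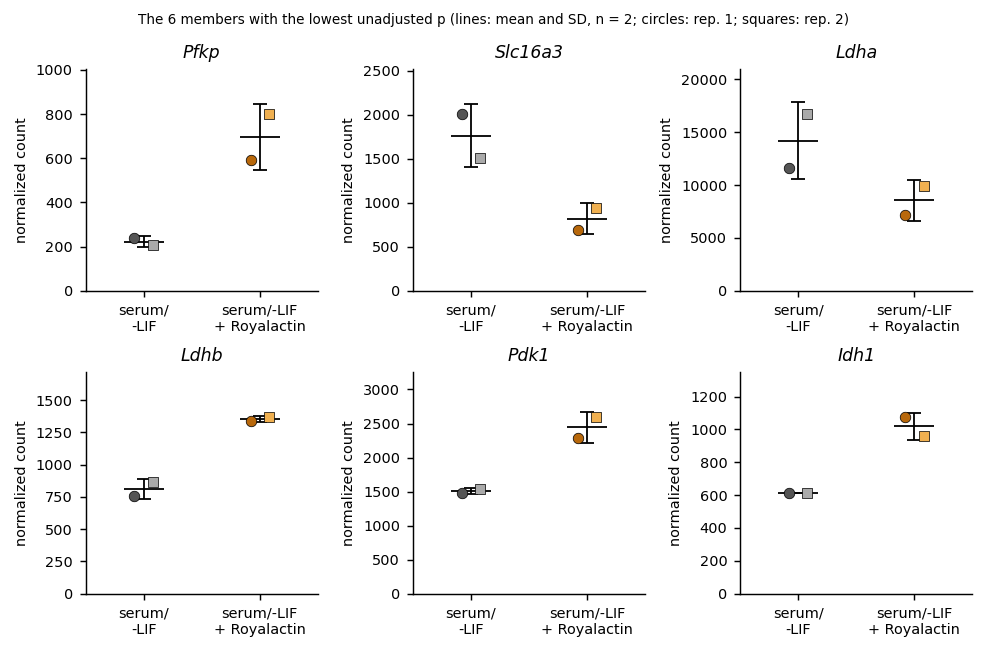
Normalized counts (axis from 0) of the 6 members with the lowest unadjusted p, with 1 point per library and lines for each group's mean and SD (n = 2). In each panel the 2 Royalactin libraries lie on 1 side of the 2 serum/-LIF libraries, lower for Slc16a3 and Ldha and higher for Pfkp, Ldhb, Pdk1 and Idh1.

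Lactate dehydrogenase genes differed in opposite directions. Ldha encodes the subunit known for turning pyruvate into lactate, and Ldhb the heart-type subunit, which favours the reverse reaction. Ldha (chromosome 7, 54096845 to 54110997, plus strand) had 11641 and 16764 normalized counts in serum/-LIF and 7210 and 9929 with Royalactin. Ldhb (chromosome 6, 142438769 to 142456477, minus strand) had 757 and 868 in serum/-LIF and 1338 and 1373 with Royalactin. Neither gene overlapped between the groups, Ldha being lower and Ldhb higher with Royalactin. The log2 fold change of Ldha was -0.72 (SE 0.35), a fold of 0.606 with a 95% interval of 0.362 to 1.01 (limma adjusted p = 0.550, Benjamini-Hochberg). That of Ldhb was 0.74 (SE 0.30), a fold of 1.67 with an interval of 1.07 to 2.60 (limma adjusted p = 0.437, Benjamini-Hochberg). Neither passed adjustment, and over the alternatives the adjusted p ran from 0.00220 to 0.9997 for Ldha and from 0.00652 to 0.9997 for Ldhb (limma, Benjamini-Hochberg).

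Within a library the share of an isozyme does not depend on how that library was scaled. Ldhb made up 11.0% and 8.96% of lactate dehydrogenase RNA per kilobase in serum/-LIF and 26.1% and 20.8% with Royalactin, a difference of 13.5 percentage points between the means. The ratio of Ldha to Ldhb was 8.10 and 10.2 in serum/-LIF and 2.84 and 3.81 with Royalactin, so Ldha remained the larger form. With 2 libraries against 2, a two-sided exact permutation test cannot give a p under 0.333, and it gave 0.333 for this share. Both genes have near-identical copies in the genome. Of 75-base tiles of their exons, 28.3% for Ldha and 51.3% for Ldhb matched a further place in mm9 with up to 2 mismatches, so their counts are uncertain.

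The 250 bases upstream of the RefSeq start are shown for Pfkp and Slc16a3, the 2 members past the limits on p and fold, and for Ldha and Ldhb. These 4 genes were picked by their values. Promoters of Pdk1 and Idh1, which were also higher at an unadjusted limma p under 0.05, are not shown. Whether the motifs go with the direction of a difference was not tested. They are RefSeq sequences of GRCm38.p6, each found at exactly 1 place in mm9 and given by its mm9 position, 5′ to 3′ on the strand of the gene. Capitals mark ACGTG, the core of the hypoxia response element, on either strand, and CACGTG, the E-box that Myc, Usf and other factors can bind. The 2 motifs overlap, because every CACGTG holds ACGTG. The Pfkp stretch is chr13:6648018-6648267 (minus strand), that of Slc16a3 chr11:120810131-120810380 (plus), that of Ldha chr7:54100924-54101173 (plus) and that of Ldhb chr6:142456478-142456727 (minus).
Pfkp: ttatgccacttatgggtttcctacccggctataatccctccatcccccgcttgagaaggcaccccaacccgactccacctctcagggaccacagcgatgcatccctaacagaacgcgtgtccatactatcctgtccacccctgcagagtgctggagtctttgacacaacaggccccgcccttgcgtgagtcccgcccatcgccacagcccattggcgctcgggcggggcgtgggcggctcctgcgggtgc
Slc16a3: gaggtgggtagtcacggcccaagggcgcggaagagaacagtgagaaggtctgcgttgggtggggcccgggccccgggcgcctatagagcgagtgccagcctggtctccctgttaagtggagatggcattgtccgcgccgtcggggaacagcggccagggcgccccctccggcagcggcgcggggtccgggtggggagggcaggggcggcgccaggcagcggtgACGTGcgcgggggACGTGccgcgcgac
Ldha: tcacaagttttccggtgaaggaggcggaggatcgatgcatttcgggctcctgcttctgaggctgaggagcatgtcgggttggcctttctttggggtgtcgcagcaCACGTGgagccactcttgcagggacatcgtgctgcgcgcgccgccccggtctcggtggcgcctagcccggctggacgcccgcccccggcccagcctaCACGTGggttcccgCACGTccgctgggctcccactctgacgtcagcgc
Ldhb: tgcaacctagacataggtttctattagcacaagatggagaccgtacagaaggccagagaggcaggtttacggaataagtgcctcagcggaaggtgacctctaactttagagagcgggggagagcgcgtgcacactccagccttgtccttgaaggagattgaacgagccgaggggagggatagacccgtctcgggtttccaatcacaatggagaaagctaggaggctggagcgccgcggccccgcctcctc
The Slc16a3 stretch held ACGTG at 2 places and no CACGTG. That of Ldha held CACGTG at 2 places and 1 further ACGTG on the other strand, and those of Pfkp and Ldhb held neither motif. Over the 39 members with a RefSeq entry in the table used (Slc2a3 and Idh3a had none), 14 held ACGTG (35.9%) and 4 held CACGTG (10.3%), beside 16.6% and 6.05% of 27025 genes. A match describes the letters of these windows and not a bound site.

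The rest of upper glycolysis, like Pfkp, showed no difference that passed adjustment in the main fit. Of the 9 genes of this arm 7 were higher and 2 lower in log2 fold change, with a median of 0.15. Without serum/-LIF replicate 2 only 4 of the 9 were higher, with a median of -0.05. Without Royalactin replicate 2 it was also 4, with a median of -0.03. Hexokinase, the first step, was mostly Hk2, with 1797 and 1220 normalized counts in serum/-LIF and 1707 and 1755 with Royalactin (log2 fold change 0.22, SE 0.31). Hk1 had 130 and 58.0, and 194 and 131, with both Royalactin libraries higher, one of them barely. Its log2 fold change was 0.87 (SE 0.56), with a limma adjusted p of 0.685 (Benjamini-Hochberg), and Hk2 had 0.870. The fold of Hk1 was 1.23 without serum/-LIF replicate 2. Hk1 made up 4.81% and 3.22%, and 7.37% and 4.95%, of hexokinase RNA per kilobase.

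Tpi1, which interconverts the triose phosphates, had the lowest log2 fold change of upper glycolysis. It had 4043 and 5144 normalized counts in serum/-LIF and 2435 and 3692 with Royalactin, without overlap, and a log2 fold change of -0.60 (SE 0.31; limma adjusted p = 0.605, Benjamini-Hochberg). Of its exon tiles 29.1% matched elsewhere. Aldolase, which cleaves fructose bisphosphate, was nearly all Aldoa, with 9246 and 6928, and 7845 and 10015 normalized counts (log2 fold change 0.15, SE 0.32). Aldoc, the brain form, had 32.1 and 107, and 80.5 and 106, with a log2 fold change of 0.65 (SE 0.69), or -0.20 without serum/-LIF replicate 1. In limma their adjusted p-values were 0.928 and 0.829 (Benjamini-Hochberg), and Aldoa made up at least 98.7% of the pair in every library. Gpi1, the isomerase, had a log2 fold change of 0.10.

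Lower glycolysis, from Gapdh to pyruvate kinase, included the most abundant members. Of its 7 genes 2 were higher and 5 lower, with a median log2 fold change of -0.15. With 1 library left out, the number higher ran from 0 (without serum/-LIF replicate 2) to 4 (without Royalactin replicate 1). Gapdh, a common reference gene, had 8111 and 8317 normalized counts in serum/-LIF and 6595 and 8055 with Royalactin. Its log2 fold change was -0.17 (SE 0.31), with a 95% interval of 0.560 to 1.41 for the fold. Pkm had 31929 and 27521, and 22605 and 31477 (log2 fold change -0.15, SE 0.40). Pgk1 and Pgam1, which follow Gapdh, had log2 fold changes of -0.12 and 0.09. In Pgam1 93.8% of exon tiles matched elsewhere in the genome, in Pkm 72.3%, in Pgk1 61.3% and in Gapdh 54.3%, so the level of these genes is less certain than their depth implies.

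Enolase, which makes phosphoenolpyruvate, showed no isozyme difference. Eno1 had 1134 and 786 normalized counts in serum/-LIF and 617 and 855 with Royalactin (log2 fold change -0.38, SE 0.33), and Eno3, the muscle form, had 219 and 291, and 163 and 211 (-0.45, SE 0.42). Eno2 had 24.1 and 0, and 26.2 and 6.20, which are 18, 0, 26 and 9 reads. Its log2 fold change of 1.48 (SE 1.95) had a 95% interval from 0.153-fold to 51.1-fold, and it turned to -0.84 without serum/-LIF replicate 2, so the data hold no direction for Eno2. The limma adjusted p-values of Eno1, Eno2 and Eno3 were 0.785, 0.867 and 0.807 (Benjamini-Hochberg). Per kilobase, Eno1 made up 45.9% to 61.0% of enolase RNA in the 4 libraries, and the groups overlapped. These shares depend on the length used. The merged exons of Eno1 span 5379 bases and its longest transcript 2027, against 1689 and 1564 for Eno3. The longest transcript would thus give Eno1 a larger share. Of the exon tiles of Eno1 20.5% matched elsewhere.

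**Figure D4:**
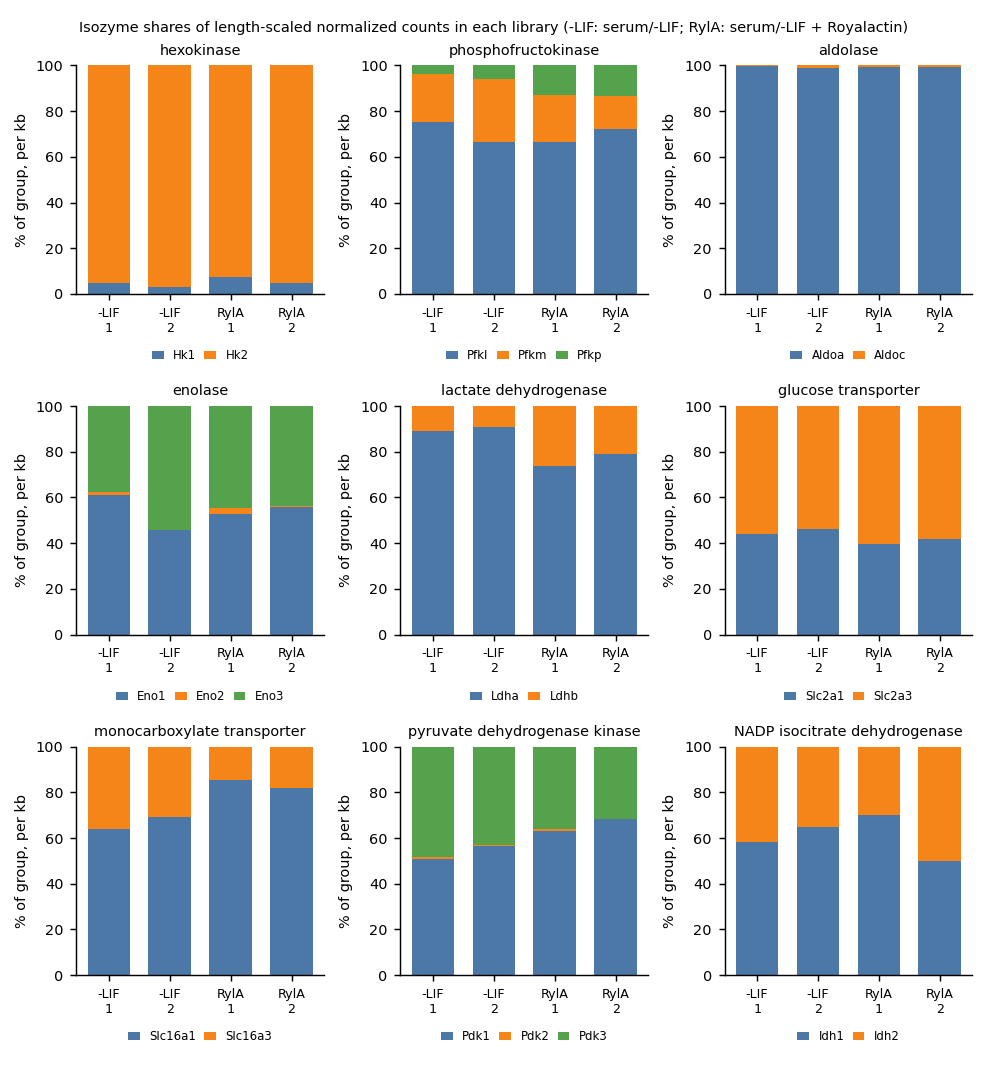
Share of each isozyme (% of its group, normalized counts per kilobase of exon) in each of the 4 libraries for 9 groups. The shares of Ldhb, Pfkp and Pdk1 are larger and that of Slc16a3 smaller in both Royalactin libraries, whereas those of aldolase, enolase and the NADP isocitrate dehydrogenases overlap.

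At the entry to mitochondria, Pdk1 was higher with Royalactin. Pdk1 encodes a kinase that inhibits pyruvate dehydrogenase (chromosome 2, 71711281 to 71741915, plus strand). It had 1474 and 1537 normalized counts in serum/-LIF and 2280 and 2603 with Royalactin, and replicates lay close together in both groups. The log2 fold change was 0.69 (SE 0.29), a fold of 1.62 with a 95% interval of 1.06 to 2.48 (limma adjusted p = 0.454, Benjamini-Hochberg, and 0.0227 to 0.9997 over the alternatives). Pdk3 had 461 and 385, and 427 and 396 (log2 fold change -0.04, SE 0.35; limma adjusted p = 0.986, Benjamini-Hochberg). Pdk2, below the limit for testing, had 13.4 and 8.28, and 14.1 and 0. No difference was detected for Pdk3, and Pdk1 made up 50.7% and 56.4% of the 3 kinases per kilobase in serum/-LIF and 63.1% and 68.4% with Royalactin.

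For the enzyme itself no difference in RNA was detected. Pdha1, its catalytic alpha subunit, had 2449 and 3091 normalized counts in serum/-LIF and 2343 and 2894 with Royalactin (log2 fold change -0.08, SE 0.30). Pdhb, the beta subunit, had 1685 and 3033, and 1658 and 2201, the lowest log2 fold change of this arm at -0.24 (SE 0.34; limma adjusted p = 0.872, Benjamini-Hochberg). The 95% intervals of the fold were 0.609 to 1.47 for Pdha1 and 0.512 to 1.39 for Pdhb. In Pdhb 69.4% of exon tiles matched elsewhere. Of the 4 genes tested in this arm 1 was higher and 3 lower, with a median log2 fold change of -0.06, and with the libraries scaled to equal totals without Rn45s the split was 2 and 2.

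All 5 genes of the pentose phosphate pathway overlapped between the groups. The log2 fold change was -0.29 (SE 0.32) for G6pdx, the NADPH-yielding first enzyme, with 749 and 1094 normalized counts in serum/-LIF and 754 and 724 with Royalactin. Pgd, the next oxidative enzyme, had a log2 fold change of -0.07, Rpia, the ribose isomerase, had -0.28, and Taldo1, the transaldolase, had -0.25. Tkt, the transketolase, had 4410 and 3733, and 3591 and 4640 (log2 fold change 0.01, SE 0.30), the only value above 0. The lowest limma adjusted p in the arm was 0.834 (Benjamini-Hochberg), and its median log2 fold change was -0.25. For 4 of the 5 genes the 95% interval lay within 2-fold, the exception being Rpia with 45.4 to 70.4 normalized counts.

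In the TCA arm, Idh1 and Idh2 encode the isocitrate dehydrogenases that make NADPH, and they had the 2 highest log2 fold changes. Idh1, the cytosolic form (chromosome 1, 65205190 to 65233053, minus strand), had 611 and 615 normalized counts in serum/-LIF and 1078 and 961 with Royalactin. These replicates lay close together and the groups were well apart, with a log2 fold change of 0.73 (SE 0.31), a fold of 1.66 and a 95% interval of 1.05 to 2.62 (limma adjusted p = 0.469, Benjamini-Hochberg, and 0.0148 to 0.9997 over the alternatives). Idh2, the mitochondrial form (chromosome 7, 87239732 to 87260278, minus strand), had 449 and 338, and 467 and 993. Its log2 fold change of 0.80 (SE 0.40; limma adjusted p = 0.579, Benjamini-Hochberg) was carried by Royalactin replicate 2, without which it was 0.26. The share of Idh1 in the pair overlapped, at 58.2% and 65.0% in serum/-LIF and 70.3% and 49.7% with Royalactin.

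The remaining 7 genes of this arm were within 1.5-fold. Cs, the citrate synthase that opens the cycle, had 1856 and 1869 normalized counts in serum/-LIF and 2251 and 2284 with Royalactin. It did not overlap and its replicates were close, but the log2 fold change was only 0.28 (SE 0.28; limma adjusted p = 0.814, Benjamini-Hochberg). Fh1, the fumarase, had 1512 and 2324, and 1328 and 1614, the lowest log2 fold change of the arm at -0.36 (SE 0.31; limma adjusted p = 0.785, Benjamini-Hochberg). The log2 fold change was -0.24 for Idh3a, the NAD-dependent isocitrate dehydrogenase of the cycle, 0.09 for Ogdh, the oxoglutarate dehydrogenase, and 0.17 for Sdha of succinate dehydrogenase. For the malate dehydrogenases it was -0.04 (Mdh1, cytosolic) and 0.22 (Mdh2, mitochondrial). Of the 9 genes 6 were higher and 3 lower (7 and 2 with scaling to equal totals without Rn45s), with a median of 0.17.

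Other genes of the same pathways were looked at as fixed lists, and none of them passed an adjusted p of 0.05 (limma, Benjamini-Hochberg). Those at an unadjusted limma p under 0.05 were Slc2a8, Pdk4, Pcx, Prps1, Acly, Epas1 and Kdm3a, which were higher with Royalactin, and Pfkfb3, Pck2, Vegfa and P4ha2, which were lower. They were 2 of 9 tested genes of glycolysis and transport, 2 of 10 of pyruvate entry and 1 of 8 pentose phosphate genes. The other lists gave 1 of 16 TCA genes, 1 of 6 of gluconeogenesis and the shuttle, and 4 of 18 of the HIF list. Among all genes the share was 9.34%. Acly barely met the limit (limma unadjusted p = 0.049999). With the correction for GC content and length Epas1 and Kdm3a passed, with adjusted p-values of 0.0443 and 0.0428 (limma, Benjamini-Hochberg, and 0.000277 to 0.9997 for Kdm3a over the alternatives). Of 22 further glycolysis and transport genes 9 were expressed enough to test, with a median log2 fold change of 0.25. Slc2a8, an intracellular glucose transporter, had 57.5 and 16.6, and 126 and 114 normalized counts (log2 fold change 1.91, SE 0.73). Its fold of 3.77 was 6.88 without serum/-LIF replicate 1 and 2.07 without serum/-LIF replicate 2. Pfkfb3, which makes the activator of phosphofructokinase, had 123 and 214, and 72.4 and 42.0 (-1.54, SE 0.59). Both were at limma p under 0.05 with an adjusted p of 0.404 (Benjamini-Hochberg), and they pointed in opposite directions. Of 10 further genes of pyruvate entry all were tested, with a median of 0.24. Pcx, the pyruvate carboxylase, had 103 and 0, and 124 and 227 normalized counts, and Pdk4, a kinase induced in fasting, had 21.4 and 0, and 64.4 and 37.2. Their folds rest on serum/-LIF replicate 2 at 0, and without it they were 1.62 for Pcx and 2.23 for Pdk4. The 2 subunits of the mitochondrial pyruvate carrier, Mpc1 and Mpc2, had log2 fold changes of 0.22 and 0.86, and Dld, the lowest of the list, had -0.21.

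Among 8 further pentose phosphate genes tested of 9, 7 were lower and the median log2 fold change was -0.38. Prps1, which makes the activated ribose for nucleotides, was the exception with 1044 and 877, and 1689 and 1379 normalized counts (log2 fold change 0.67, SE 0.30). Tktl1, a transketolase-like gene, had the lowest value at -1.003. Among 16 further TCA genes tested of 17, the median was 0.08, from -0.51 for Me1, the cytosolic malic enzyme, to 0.65 for Acly, which cleaves citrate to acetyl-CoA (3686 and 2630, and 4726 and 5037 normalized counts). Of 9 genes of gluconeogenesis and the glycerol phosphate shuttle 6 were tested, with a median of 0.46. Pck2, the mitochondrial PEP carboxykinase, had 526 and 375, and 226 and 227 (log2 fold change -0.97, SE 0.38; limma adjusted p = 0.419, Benjamini-Hochberg). Fbp2, a muscle fructose bisphosphatase, had the highest log2 fold change at 3.42 (SE 2.00), but from 2 and 0 reads in serum/-LIF and 22 and 25 with Royalactin, with a 95% interval of the fold from 0.543 to 211. G6pc3, a glucose-6-phosphatase, had the lowest at -1.15 (SE 0.62).

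HIF, the hypoxia-inducible factor, is known to raise Slc16a3, Ldha, Pdk1 and most glycolytic genes, and 19 of its regulators and targets outside metabolism were read beside them. Of 18 tested 11 were higher and 7 lower with Royalactin (median log2 fold change 0.07), and at an unadjusted limma p under 0.05 there were 2 in each direction, beside 4.76% (higher) and 4.58% (lower) of all genes. Epas1, which encodes HIF-2 alpha, had 118 and 85.9, and 385 and 292 normalized counts (log2 fold change 1.73, SE 0.45; limma adjusted p = 0.145, Benjamini-Hochberg, and 0.00261 to 0.9997 over the alternatives). Kdm3a, a histone demethylase, had 738 and 896, and 1540 and 1818 (1.04, SE 0.30). In contrast, Vegfa, the vascular growth factor, had 275 and 240, and 121 and 119 (-1.09, SE 0.44), and P4ha2, a collagen prolyl hydroxylase, had 158 and 219, and 87.5 and 53.0 (-1.44, SE 0.54). None overlapped between the groups, and the adjusted p-values of these 3 were 0.210, 0.437 and 0.393 (limma, Benjamini-Hochberg). Hif1a itself had a log2 fold change of 0.12. Of the members named here, Slc16a3 and Ldha were lower and Pdk1 was higher with Royalactin, and none of them passed adjustment in the main fit. The other glycolytic members lay on both sides of 0. Any part of HIF in these values was not tested.

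**Figure D5:**
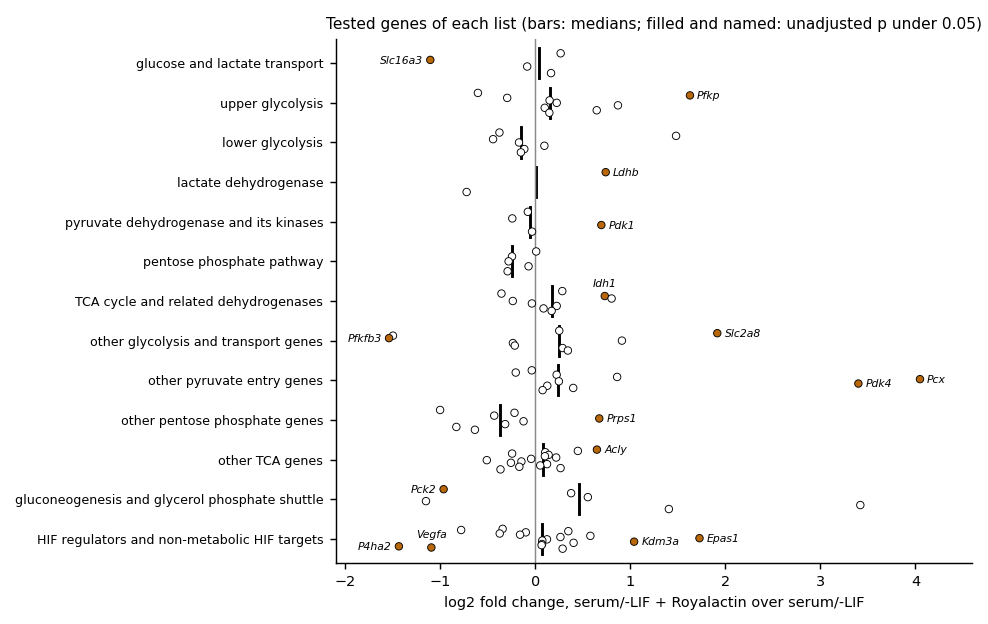
Log2 fold change of each tested gene in the 7 arms and 6 further lists, with bars at the medians and filled, named points for an unadjusted limma p under 0.05. No list lies wholly on 1 side of 0.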

How the data were processed

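RNA-seq libraries of J1 mESCs, 2 in serum/-LIF and 2 in serum/-LIF + Royalactin, were grouped by the sample titles. Ribosomal RNA had been depleted, and the authors aligned the reads to mm9 with Tophat, ran HTSeq-count and deposited DESeq-normalized counts, a signal that equals reads per gene over 1 size factor per library. The annotation and strand setting of the counting are not given in the sources used here. Values were whole multiples of the value of 1 read to within 0.01 of a read for 100% of genes in each library, and read numbers were taken from it. For Royalactin replicate 1 that value was 1.01. As the deposited values were normalized and not raw counts, no count model was fitted.

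Log2(normalized count + 1) was tested with limma 3.58.1 in R 4.3.3 (lmFit, eBayes with a variance trend, two-sided) for the 12993 genes with a mean of at least 10, with Benjamini-Hochberg adjustment over all of them. All fold changes given are differences of group means on that log2 scale, so for weakly expressed genes they depend on the pseudocount and can differ from the ratio of the mean counts. Intervals are 95% intervals of this fit, with 2 residual degrees of freedom per gene before moderation. The 9 isozyme shares were computed per kilobase of merged exons and compared by two-sided exact permutation over the 4 libraries.

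Positions and exon lengths came from GENCODE vM1 on mm9, which matched 94.2% of symbols, and 27 symbols of the table read as dates. Exon tiles of 75 bases, every 25 bases, were mapped with minimap2 2.31-r1302 and do not cover junctions. Promoter sequences are from RefSeq (GRCm38.p6). Values of every library were given for members with an unadjusted limma p under 0.05, the highest and lowest log2 fold change of each arm, and members of an isozyme group. In the other lists the named genes were those at an unadjusted p under 0.05 and the extremes, with values per library for the former, and a few further genes (Hif1a, Mpc1 and Mpc2) were chosen after their values were seen. The members and lists were chosen with earlier results of these data known. The series' design text speaks of at least biological duplicates, but no label ties a library to a culture, so p-values measure the spread between these libraries. The fit was also run on simulated counts that held no effect of the replicate number, so that run does not show how the fit behaves with such an effect. The alternatives, 15 for each test, were other pseudocounts (0.1 and 5), filters and scalings, no trend, the replicate number as a block, a correction for GC content and length, and each library left out.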

Additional observations from a re-analysis of the deposited data

How the results depend on the processing

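Over the 15 alternatives no member with a p-value under 0.05 changed its direction. The number of genes with an adjusted p under 0.05 (64; limma, Benjamini-Hochberg) was 32 with a pseudocount of 0.1, 34 without a filter, 99 with a mean of at least 50, 256 with the correction for GC content and length and 0 without the variance trend (1135 at an unadjusted p under 0.05), and it was 0 with any 1 library left out (428 to 2496 unadjusted). In the alternatives without a replicate block no member passed, except 1 with a mean of at least 50 (Pfkp) and 2 with the correction for GC content and length (Pfkp and Slc16a3). More members passed in a fit with the block, as given below.

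The replicate numbers gave a correlation of deviations of 0.0851 across genes in 2 pairs, so the main fit did not take them as pairs. Rn45s did follow the replicate number. It took 46.6% and 38.4% of reads in replicate 1 of serum/-LIF and of Royalactin, and 21.6% and 9.08% in replicate 2. The calls among the members depended on this choice. A fit with the replicate block called 391 genes and 2 members (Pfkp and Slc16a3), and with the block and the correction for GC content and length it called 798 genes and 7 members, 4 higher (Pfkp, Ldhb, Pdk1 and Idh1) and 3 lower (Slc16a3, Ldha and Tpi1). Of the named genes in the other lists, Pcx, Epas1 and Kdm3a passed with the block, and Prps1, Pck2 and P4ha2 as well with the block and the correction. The cause of these differences in calls was not tested.

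Leaving out each library in turn gave 427 to 1925 genes past the limits on p and 2-fold (927 with all libraries), with 1925 without serum/-LIF replicate 1, 427 without Royalactin replicate 1 and 521 without Royalactin replicate 2. It gave 2 or 3 such members and a median log2 fold change of the members of -0.067 to 0.11. Without serum/-LIF replicate 2, 12 members changed sign, and without each other library 6 did. Slc16a3, Ldhb, Pdk1 and Idh1 were each at a limma p of 0.05 or more without at least 1 library, and Pfkp was not. With the length of the longest transcript, the difference in isozyme share was 3.63 points for Hk1 (2.15 with merged exons), 12.6 for Pfkp (8.23) and 10.6 for Ldhb (13.5). With 1 library left out, the lone library of its group was assumed to vary like the other group. Depth limited Eno2 and Pdk2, which had few reads.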
